A study of Mus musculus with 96 samples.

Results

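Bmi1 and Ezh2 are the Polycomb genes measured in a panel of 96 assays on 96 single cells of the mouse uterus. They were taken by name from that panel and are 2 of its 96 genes. All cells come from 1 group, untreated as far as the labels say, of mice at postnatal day 7. No genotype, strain, sex, treatment, control or number of animals is given in the sources used here. The organ was digested with type I collagenase, cells positive for CD326 (EpCAM, an adhesion protein of epithelial cells) were sorted 1 to a well, and each lysate was reverse transcribed, preamplified and read by quantitative PCR on a microfluidic array.

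Polycomb proteins keep genes silent through cell division by modifying the histones around them. They work in 2 complexes. Ezh2 is the catalytic subunit of Polycomb repressive complex 2 and methylates lysine on histone H3, and Bmi1 (Pcgf4) is a RING finger subunit of a form of complex 1, which ubiquitinates histone H2A and compacts chromatin. Bmi1 is known for its part in the self-renewal of adult stem cells and for repression of the cell cycle inhibitor locus Cdkn2a. Ezh2 is known to be expressed mainly in dividing cells, in the uterine epithelium among other tissues. Of the lists used here, 1 of 9 genes of complex 1 (Bmi1) and 1 of 5 genes of complex 2 (Ezh2) had an assay, so no other subunit can be set beside them.

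The measurement is a cycle threshold (Ct), the number of PCR cycles needed for a visible product, and it falls as template increases. Values below 28 counted as detection. Its level is 28 minus Ct, a log2 scale if each cycle doubles the product. Assays amplify with their own efficiency, so levels and Ct of different genes are comparable only roughly, and the text compares a gene with itself across cells. Cells of 1 group are not replicates, so no test was run and no p-value is given, and every relation across cells is a description of these cells, in which all assays of a cell share its amount of template.

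The promoters of both genes, and that of Mki67 (the gene of a nuclear protein of dividing cells, to which Ezh2 and Bmi1 levels stood in different relation below), are shown for the 250 bases before the RefSeq transcription start, 5′ to 3′ on the strand of the gene, in build GRCm38.p6. The stretches are chr2:18676768-18677017 on the + strand for Bmi1, chr6:47595031-47595280 on the - strand for Ezh2 and chr7:135716380-135716629 on the - strand for Mki67. Capitals mark the CCAAT box, read as CCAAT or as its complement ATTGG, and the E-box CACGTG.
Bmi1: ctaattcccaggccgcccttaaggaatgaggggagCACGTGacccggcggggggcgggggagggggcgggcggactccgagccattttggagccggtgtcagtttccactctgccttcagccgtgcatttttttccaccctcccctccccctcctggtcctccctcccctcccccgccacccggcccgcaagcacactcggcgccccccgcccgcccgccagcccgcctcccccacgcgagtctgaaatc
Ezh2: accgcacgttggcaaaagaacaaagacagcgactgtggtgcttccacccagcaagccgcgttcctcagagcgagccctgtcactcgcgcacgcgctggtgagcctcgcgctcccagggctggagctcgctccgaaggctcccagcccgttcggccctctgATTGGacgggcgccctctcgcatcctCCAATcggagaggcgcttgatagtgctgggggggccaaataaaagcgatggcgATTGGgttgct
Mki67: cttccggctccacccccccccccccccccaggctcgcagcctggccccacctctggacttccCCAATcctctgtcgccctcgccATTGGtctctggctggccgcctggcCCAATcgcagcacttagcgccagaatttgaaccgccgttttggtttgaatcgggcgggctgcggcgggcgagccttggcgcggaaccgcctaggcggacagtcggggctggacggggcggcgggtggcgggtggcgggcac
All 3 stretches are rich in G and C, at 70.4% for Bmi1, 63.6% for Ezh2 and 71.6% for Mki67, against a median of 52.4% over 32851 promoters of the same length. They hold 21, 23 and 24 CpG dinucleotides, against a median of 6. The CCAAT box, the binding motif of the factor NF-Y, was found 3 times in the Ezh2 promoter and 3 times in that of Mki67 but 0 times in that of Bmi1. At least 1 match is present in 33.8% of the promoters and at least 3 in 2.79%. In Ezh2 the matches begin 90, 64 and 11 bases before the start, and in Mki67 they begin 188, 166 and 141 bases before it. The E-box was found 1 time, in Bmi1, beginning 215 bases before the start, and 6.02% of promoters hold it. The GC box GGGCGG, a motif of Sp factors, was found 6 times in Bmi1, 0 times in Ezh2 and 2 times in Mki67, and 32.7% of promoters hold it. For E2F only the words TTTGGCGC and TTTCGCGC were searched. They were found in none of the 3 stretches and in 0.654% of promoters, and other forms of the motif were not searched. Both strands were searched, overlapping matches were counted, the motifs do not overlap one another in their letters, and they were chosen with the sequences in view. A match is a description of these letters and not a binding site.

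Over the whole panel, 4851 of 9216 values (52.6%) were below 28, and a cell detected a median of 54 assays (range 9 to 78). In 8 cells Gapdh came later than Ct 18 or was missing, and these low-Gapdh cells detected 9 to 30 assays, against 22 to 78 in the other 88. Cell 67 belongs to the 8 because it has no value in the first 71 assays, which include Bmi1, Ezh2, Mki67 and Gapdh. Epcam, the gene of the sorted antigen, was missing in 22 of the 96 cells. The median cell detected 6 of the 6 measured epithelial markers, but also 5 of 10 markers of stromal, endothelial and immune cells, with Pecam1 in 93 cells among them. Whether these markers come from other cell types was not tested.

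Bmi1 was found in nearly every cell, at an even level by raw Ct. It was detected in 93 of 96 cells (96.9%, exact Clopper-Pearson 95% interval 91.1 to 99.4%, which covers counting error only). Its Ct ran from 13.65 to 20.13 with a median of 15.98, and its mean level was 11.89 ± 1.15 (SD, n = 93 cells). Lowering the Ct limit to 26 or 24 left 93 cells. Among the 53 assays present in 50% or more of the cells, Bmi1 had the lowest SD of Ct, 1.15 cycles. The next was Pecam1, an adhesion gene of endothelium, at 1.54, and the median assay had 2.09 and the highest 3.28. By interquartile range Bmi1 (1.24 cycles) came second, after Pecam1 (1.23 cycles).

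The ends of the Bmi1 range were thinly filled. The lowest Ct values were 13.65 in cell 84, 14.22 in cell 48 and 14.27 in cell 83. The highest was 20.13 in cell 33, and the next were 18.93 in cell 77 and 18.80 in cell 87. Cell 33 had Gapdh at 13.13, Ezh2 at 16.54 and Mki67 at 23.33, and it detected only 33 assays.

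The 3 cells without Bmi1 (cells 1, 25 and 67) were all low-Gapdh cells. The other 5 low-Gapdh cells still gave Bmi1 Ct values of 16.64, 16.51, 17.55, 15.90 and 18.80 (cells 2, 49, 73, 86 and 87), inside the range of the rest. Their Gapdh Ct values were 18.3, 22.9, 20.5, 21.2 and 18.4, and cell 86 detected only 9 assays. Gapdh Ct minus Bmi1 Ct averaged 3.21 cycles in these cells and -3.06 in the other 88. What gives the Bmi1 signal in cells with so few assays was not tested. All 88 remaining cells detected Bmi1. Pecam1 was missing in exactly the same 3 cells, so Bmi1 and Pecam1 were detected in the same 93 cells. In order of share, Bmi1 stood beside Gapdh and actin (95 cells each), Pecam1 and Krt19 (93 each), and Igf1r and Krt18 (91 each). The share of each of these neighbours lies within the counting interval of Bmi1.

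Ezh2 was found in fewer cells, and its raw Ct varied more between them. It was detected in 62 of 96 cells (64.6%, interval 54.2 to 74.1%), with Ct from 14.49 to 25.04 and a median of 19.58. Its mean level was 8.69 ± 2.41 (SD, n = 62 cells), and the SD ranked 42 of 53 from the lowest. The larger spread of Ezh2 did not hold relative to Gapdh in the same cell. On that scale the SD was 2.20 cycles for Bmi1 and 1.90 for Ezh2. Without the low-Gapdh cells it was 1.63 for Bmi1 and 1.82 for Ezh2. Detection did not hang on the limit chosen: no Ct of Ezh2 was recorded after 25.04, and 61 cells remained with a limit of 24. The lowest Ct values were 14.49 in cell 23, 14.68 in cell 71 and 15.14 in cell 47, all with Gapdh between 10.32 and 11.32. The highest were 25.04 in cell 52 and 23.61 in cell 38, with Gapdh at 14.68 and 15.00. In order of share its neighbours were the reference gene Hprt (64 cells), Itga3 (63), Enpep and Gja1 (62 each) and Cd55 (61), and these neighbours cannot be ordered beyond counting error.

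**Figure D1:**
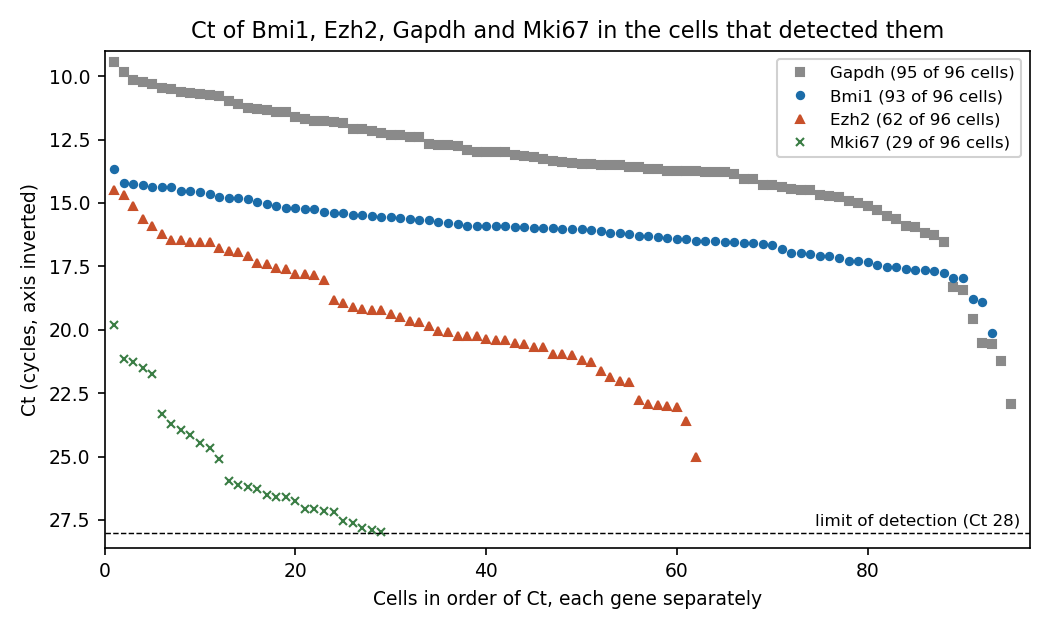
Ct (cycles, axis inverted so that more template is higher) of Gapdh, Bmi1, Ezh2 and Mki67 in the cells that detected each, with cells put in order of Ct for each gene separately. Bmi1 forms a nearly flat series over 93 cells, while Ezh2 falls from 14.49 to 25.04 over 62 cells and Mki67 lies near the limit of 28 in most of its 29 cells.

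The members differed in how far they followed Gapdh, whose Ct was used here to stand for the amount of template in a cell. By the number of assays a cell detected, another measure, the rho values lay near each other, though over different sets of cells. The rho of Ct with that number was -0.50 for Bmi1 (n = 93) and -0.44 for Ezh2 (n = 62). The cells with Bmi1 include 5 low-Gapdh cells and those with Ezh2 only 1. Over the 62 cells with both, Ezh2 Ct followed Gapdh Ct at a Spearman rho of 0.67 (Pearson r 0.62, rising to 0.68 once the 2 cells most distant from the median Gapdh Ct were left out), with a slope of 0.92 cycles per cycle of Gapdh. Bmi1 followed it at a rho of 0.39 (r 0.35, and 0.41 without 2 cells, n = 93), with a slope of 0.17. Among 58 assays with at least 40 cells, the median rho with Gapdh was 0.61, from 0.04 for Pecam1 to 0.79 for actin. Bmi1 ranked 12 from the lowest and Ezh2 ranked 42. Without the low-Gapdh cells the values were 0.34 for Bmi1 (n = 88, slope 0.24) and 0.67 for Ezh2 (n = 61, slope 1.12).

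In the 48 cells with the lowest Gapdh Ct, Ezh2 was detected in 42 (87.5%), and in the other 48 it was detected in 20 (41.7%). That gap of 45.8 percentage points was the widest of 95 assays, together with Emx2, a homeobox gene of the developing urogenital tract. A gap of 20 points or more was found in 44.2% of assays. Assays found in very few or nearly all cells could not reach 20 points, here or in the comparisons by Mki67 and Ezh2 below. The Ezh2 level was 9.47 ± 2.32 (n = 42) in the first set and 7.06 ± 1.72 (n = 20) in the second. Over 4 sets of 24 cells in order of rising Gapdh Ct, Ezh2 was detected in 22, 20, 13 and 7 cells, with mean levels of 10.57, 8.26, 7.44 and 6.36. Bmi1 was detected in 24, 24, 24 and 21 cells of those sets, with mean levels of 12.26, 12.03, 11.97 and 11.23. Cells without a detected Ezh2 are mostly cells with late Gapdh, and whether they lack Ezh2 transcript or have too little template to show it was not tested.

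**Figure D2:**
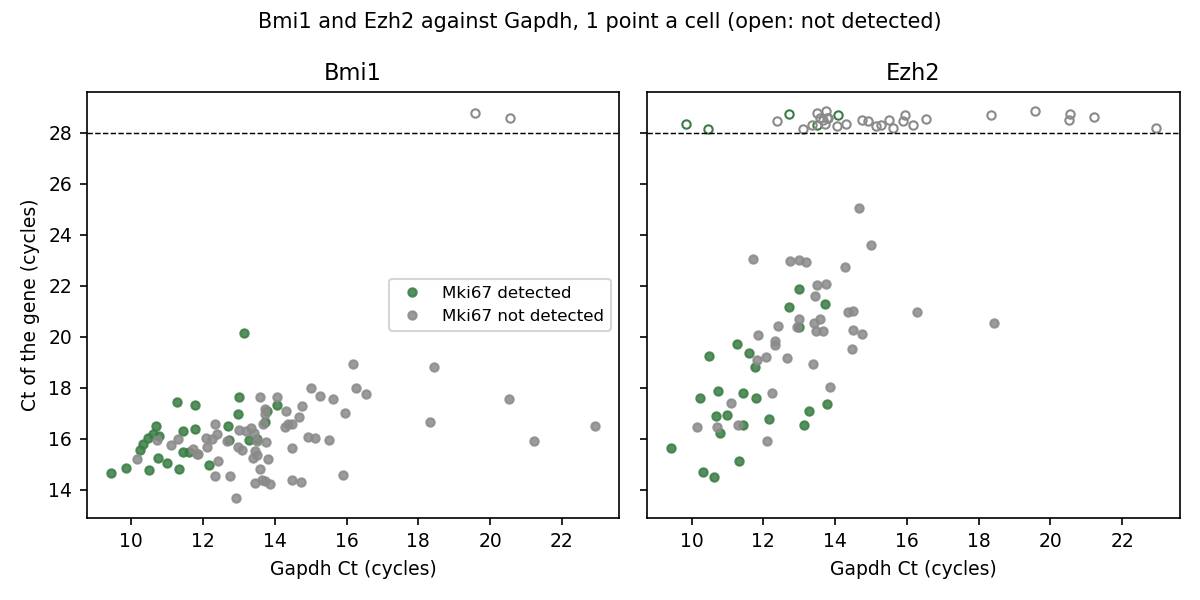
Ct of Bmi1 (left) and Ezh2 (right) against Gapdh Ct, both in cycles, with 1 point for each of the 95 cells that detected Gapdh. Open points above the dashed line at 28 are cells without the gene (their height there carries no value), and green marks cells with Mki67. Ezh2 rises with Gapdh Ct and is missing in most cells past 14, while Bmi1 changes little.

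**Figure D3:**
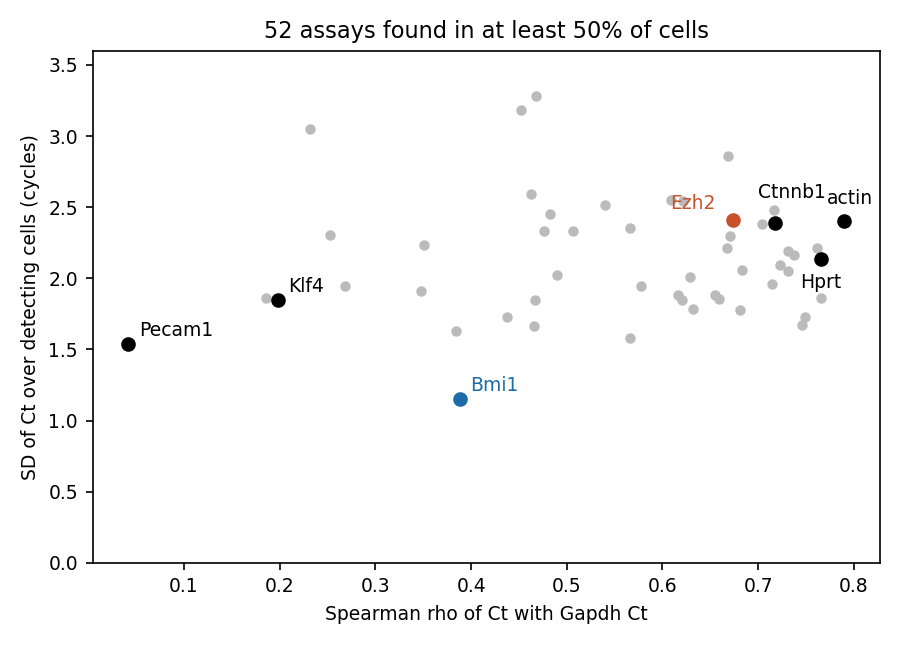
SD of Ct (cycles) against the Spearman rho of Ct with Gapdh Ct for the 52 assays other than Gapdh present in 50% or more of the cells. Bmi1 lies lowest, at 1.15 cycles, and Ezh2 lies among the assays with a high rho, near Ctnnb1.

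Bmi1 and Ezh2 were not found to rise and fall together. Both were detected in 62 cells (64.6%), Bmi1 alone in 31, Ezh2 alone in 0 and neither in 3. Every cell with Ezh2 thus had Bmi1. Only 3 cells, all of them low-Gapdh cells, lacked Bmi1, so this count says little of a relation between the genes. Pecam1 was also found in every cell with Ezh2. By counting error, a count of 0 allows up to 3 in 96 cells with Ezh2 alone. In the 62 cells with both, the rho of their Ct was 0.09 (r 0.06, and 0.04 without the 2 cells farthest in Ezh2 Ct). Given Gapdh Ct, the partial rho was -0.02. The Bmi1 level was 12.12 ± 1.17 (n = 62) in cells with Ezh2 and 11.43 ± 0.97 (n = 31) in cells without, a gap smaller than either SD.

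Mki67 was detected in 29 cells, and 36 cells had any recorded Ct for it. Of the 29 cells, 24 (82.8%, interval 64.2 to 94.2%) had Ezh2, against 38 of the 67 others (56.7%, interval 44.0 to 68.8%). These intervals overlap and cover counting error only, so they are no test of a difference. The difference of 26.0 points ranked 4 of 95 assays, and 14.7% of assays differed by 20 points or more. Cells with Mki67 also had earlier Gapdh, with a median Ct of 11.43 against 13.74, and more detected assays, with a median of 59 against 51. Within the 48 cells of lowest Gapdh Ct the difference in Ezh2 was nearly gone. There 22 of 25 cells with Mki67 (88.0%) and 20 of 23 without (87.0%) had Ezh2, a difference of 1.04 points that ranked 38 of 95, where 5.26% of assays passed 20 points. The other 48 cells held only 4 with Mki67, of which 2 had Ezh2.

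The mean level of Ezh2 was higher in cells with Mki67, and the gap was smaller but of the same sign once Gapdh was taken into account. Across all detecting cells it was 10.21 ± 2.06 with Mki67 (n = 24; lowest 6.13, median 10.52, highest 13.51) and 7.73 ± 2.13 without (n = 38; lowest 2.96, median 7.68, highest 12.08). The 2 ranges overlap widely. The difference of 2.48 cycles is a little more than either SD and ranked 7 of 70 assays, of which 68.6% were higher by at least 1 cycle. The median assay was higher by 1.49 cycles. Relative to Gapdh in the same cell the difference in Ezh2 was 0.89 cycles, less than its SDs of 1.76 with Mki67 and 1.92 without. On that scale it ranked 3 of 70, and only 2.86% of assays passed 1 cycle, namely Sall4, a zinc finger gene of pluripotent cells, and Wnt5a, a WNT ligand gene. The median assay on that scale was at -0.56.

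In the 48 cells of lowest Gapdh Ct, the Ezh2 level was 10.35 ± 2.01 with Mki67 (n = 22) and 8.50 ± 2.30 without (n = 20), a difference of 1.85 cycles. It ranked 9 of 62 assays there, of which 43.5% were higher by at least 1 cycle, with a median of 0.87. Gapdh itself was still 0.85 cycles earlier in the cells with Mki67 of that set. Over the 24 cells with both genes, the Ct of Ezh2 followed that of Mki67 at a rho of 0.66 (r 0.61, and 0.62 without 2 cells), and at a partial rho of 0.62 given Gapdh. The rho of Mki67 with Gapdh was 0.42 over its 29 cells.

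Bmi1 did not show a higher level in the detecting cells with Mki67. It was detected in all 29 cells with Mki67 and in 64 of the 67 without. Its level was 11.83 ± 1.15 (n = 29; lowest 7.87, median 11.97, highest 13.35) with Mki67 and 11.92 ± 1.16 (n = 64; lowest 9.07, median 12.02, highest 14.35) without, a difference of -0.10 cycles. That difference ranked 67 of 70 assays, whose median was 1.49. In the cells of lowest Gapdh Ct the difference was -0.47, which ranked 54 of 62 against a median of 0.87. Relative to Gapdh it was -2.50 cycles, on a scale where Gapdh differed by 2.58 and Bmi1 hardly moved. There it ranked 67 of 70 against a median of -0.56. The rho of Bmi1 with Mki67 was 0.23 (r 0.09, and -0.02 without 2 cells, n = 29). Myc, the other gene measured of the 8 on the cell cycle list, stood at a rho of 0.30 with Ezh2 (n = 58) and 0.24 with Bmi1 (n = 83), and at partial values of -0.05 and 0.07 given Gapdh.

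**Figure D4:**
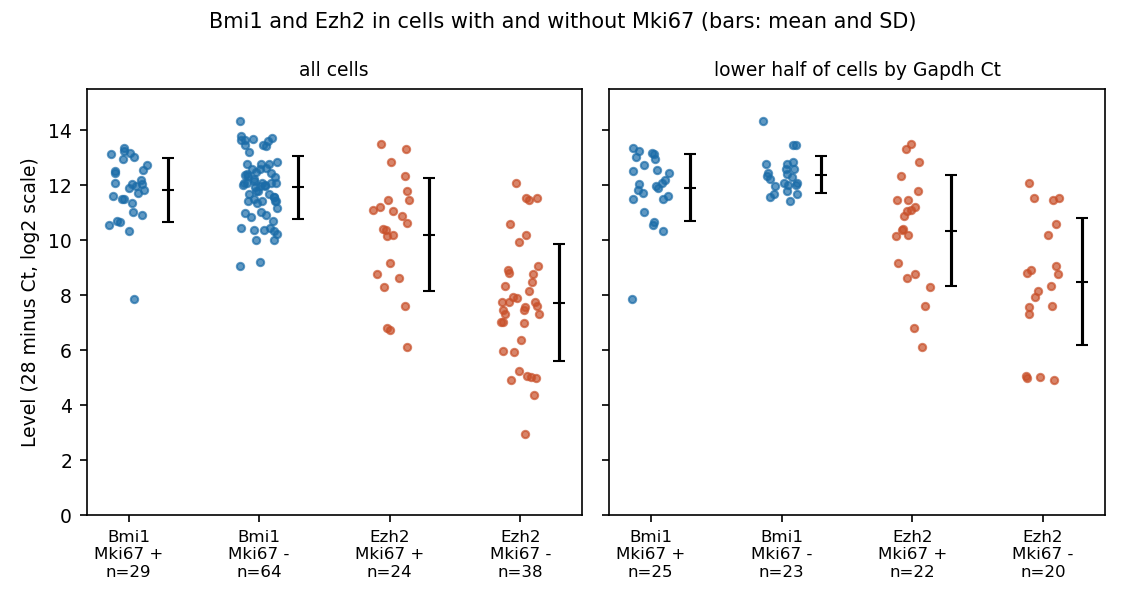
Level (28 minus Ct, a log2 scale) of Bmi1 (blue) and Ezh2 (orange) in cells with and without Mki67, over all cells (left) and the 48 cells of lowest Gapdh Ct (right). Points are detecting cells and bars give the mean and SD. Ezh2 means are 10.21 and 7.73 over all cells, and 10.35 and 8.50 at low Gapdh Ct, with overlapping points, while the Bmi1 means lie within 1 cycle of each other.

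The gene whose Ct was most like that of Ezh2 was Ctnnb1, and Mki67 could not enter this order because too few cells had both. Likeness was the Spearman rho of Ct over at least 40 cells with both, which 49 assays allowed, and their median was 0.44. Ctnnb1, the gene of beta-catenin, stood at 0.79 (n = 59 cells, partial rho 0.63 given Gapdh). Msi1, an RNA-binding protein gene used as a stem cell marker, followed at 0.75 (n = 48, partial 0.60). Wnt7a, a WNT ligand gene, and Epcam both stood at 0.73 (n = 41 and 50, partial 0.47 and 0.48). Hprt stood at 0.72 (n = 48, partial 0.46) and the assay cd327 at 0.70 (n = 55, partial 0.53). Gapdh itself ranked 8 in that order.

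At the other end, Pecam1 ran opposite to Ezh2, at a rho of -0.30 (r -0.35, n = 62, partial -0.27). Klf4, a zinc finger gene of epithelia and of pluripotent cells, stood at 0.03 and Dppa2 at 0.16, with Bmi1 between them at 0.09. Given Gapdh, the median over assays fell to 0.09 and 14 stood at 0.3 or above. The lowest partial value was -0.49, for Nanog, whose plain rho was weak; it was chosen after its value was seen.

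For Bmi1 no assay reached a rho of 0.5, against 18 of 49 for Ezh2. Its highest values were 0.41 with Pecam1 (r 0.27, n = 93), 0.40 with Ncam1, an adhesion gene (n = 50), 0.39 with Gapdh, 0.37 with actin and 0.36 with Igf1r, an insulin-like growth factor receptor gene (n = 90). Igf2r, another receptor for these factors, stood at 0.34 (n = 72), and the median over 58 assays was 0.17. Given Gapdh, Pecam1 stayed at 0.43 and Igf2r at 0.31, while Ncam1, actin and Igf1r came down to 0.13, 0.11 and 0.16. The lowest were Cd34 at -0.11, Pax2 at -0.08 and Emx2 at 0.00. Bmi1 and Pecam1 thus shared their cells and a narrow interquartile range, while their full ranges of Ct were 6.48 and 10.04 cycles. The Ct of Bmi1 also followed the number of assays a cell detected, at a rho of -0.50 (n = 93), as that of Ezh2 did at -0.44 (n = 62).

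**Figure D5:**
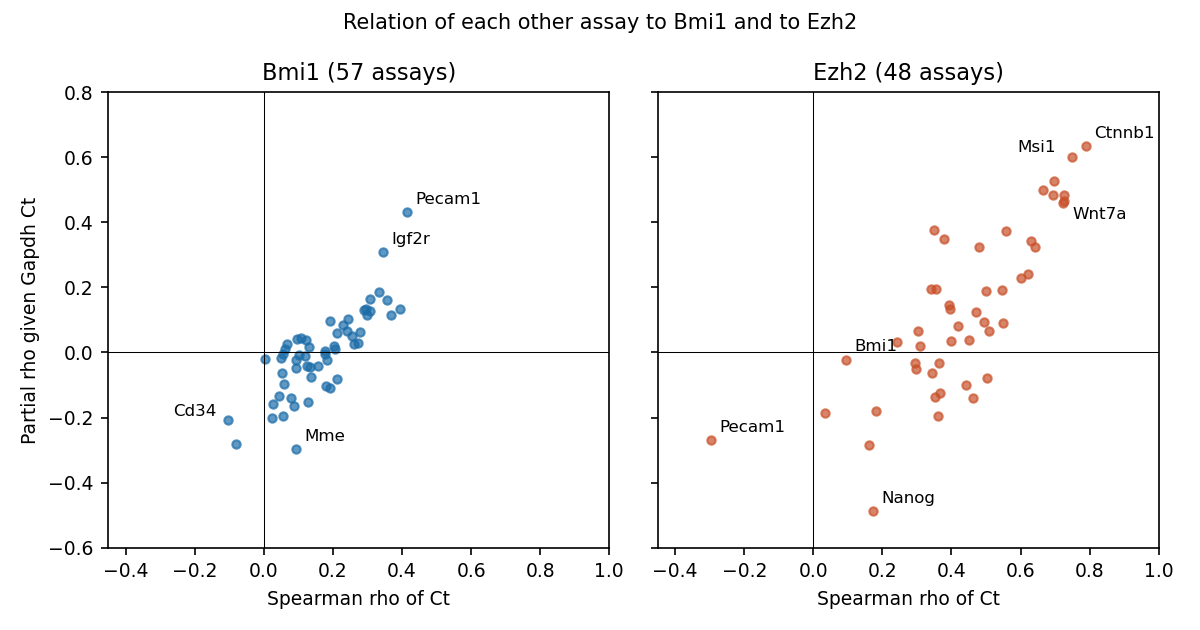
Spearman rho of each other assay with Bmi1 (left, 57 assays) and with Ezh2 (right, 48 assays) against the partial rho given Gapdh Ct, with 1 point for each assay other than Gapdh. Ezh2 has assays up to 0.79 with a partial rho of 0.63, while for Bmi1 the highest rho is 0.41, for Pecam1, with a partial rho of 0.43.

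Cells with Ezh2 detected more of most other genes. Of 95 assays, 90 were found in a larger share of the 62 cells with Ezh2 than of the 34 without and 4 in a smaller share, with a median difference of 14.1 points. A difference of 20 points or more was reached by 27 assays (28.4%), a share that counts assays found in too few or too many cells to reach it. The cells with Ezh2 had a median Gapdh Ct of 12.69 against 14.53 and detected a median of 56 assays against 44. Averaged within the lower and upper 48 cells by Gapdh Ct, the median difference was 4.76 points, and 6 assays (6.32%) passed 20 points.

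The widest differences were for Msi1, found in 77.4% of cells with Ezh2 and 29.4% of those without, and for Il17ra, a cytokine receptor gene, in 64.5% and 23.5%. Pax2, a paired-box gene of the urogenital tract, was found in 58.1% and 20.6%, and Emx2 in 54.8% and 17.6%. Lgr4, a receptor gene that amplifies WNT signals, was found in 93.5% and 58.8%, and Wnt7a in 66.1% and 32.4%. Within the Gapdh sets these differences were 35.4 points for Msi1, 28.1 for Il17ra, 22.5 for Pax2, 18.0 for Emx2, 17.6 for Lgr4 and 12.1 for Wnt7a. Of these, Lgr4 and Wnt7a were less frequent with Ezh2 in the lower Gapdh set, at -4.76 and -14.3 points, where only 6 cells lacked Ezh2. Pgr (24.2 points), Anpep (24.3) and Cd200 (20.2) were the other assays past 20 points within the sets. The smallest differences were -6.45 points for the assay h2b, -6.26 for Dpp4 and -4.27 for Esrrb. Bmi1 differed by 8.82 points, the most it could, since only 3 cells lacked it and all of them lacked Ezh2.

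By gene group, 2 of the 10 measured developmental regulators of families that Polycomb commonly marks, Pax2 and Emx2, were found more often by 20 points or more in cells with Ezh2, and within the Gapdh sets only Pax2 was, counts near the shares of all assays (28.4% and 6.32%). Their median difference was 8.40 points, against 14.1 for all assays. Of the 10 measured adult stem cell markers 5 passed, and within the sets only Msi1 did, where the shares of all assays were again 28.4% and 6.32%. The count within the sets is near that background. Of the steroid receptors, Pgr passed and Esr1 did not. None of 6 epithelial markers, 6 stromal and mesenchymal markers, 2 basal markers and 1 immune marker (Ptprc) passed. Over all cells some list members could not have passed, being found in too many or too few cells. They are Krt18 (91 cells), Krt19 (93), Pecam1 (93), Gapdh and actin (95 each), Vim (7) and Trp63 (6). Hoxa10 (11), Foxa2 (7), Lhx1 (6), Pou5f1 (7), Esrrb (3) and Lin28a (0) are the others, so the counts by group are bounded by this. Of 3 endothelial markers 1 passed (Cd34), as did 1 of 7 pluripotency genes (Nanog), neither of them within the sets. Of 3 reference genes Hprt passed, at 30.4 points, and it stood at 19.4 points within the sets. Of 2 cell cycle genes Mki67 passed, at 24.0 points, and it stood at 2.62 within the sets. Whether cells within a set still differ in template by Ezh2 was not tested. Of the 10 stromal, endothelial and immune markers, cells with Ezh2 detected a median of 6 (2 to 9) and cells without 5 (0 to 7). Their summed levels were 49.1 (18.7 to 81.1) and 40.2 (0 to 69.7), and their part in the differences was not tested. Both sets of cells detected a median of 6 of the 6 epithelial markers.

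The levels of both genes were mostly higher in cells that had another given gene, for 39 of 55 assays in the case of Ezh2 and 65 of 71 in that of Bmi1. The limit of 1 cycle used below is a smaller part of the SD of Ezh2 (2.41) than of that of Bmi1 (1.15), so the counts past it cannot be compared directly. Ezh2 was higher by at least 1 cycle in cells with the other gene for 22 of 55 assays that had at least 10 cells on each side (40.0%). The widest was Emx2, with an Ezh2 level of 10.09 ± 1.98 in the 34 cells with it and 7.00 ± 1.71 in the 28 without, a difference of 3.09. Aldh1a1, a retinoic acid synthesis gene used as a stem cell marker, gave 2.84 cycles, with 11.03 ± 2.16 (n = 11) and 8.19 ± 2.17 (n = 51). Mki67 came next at 2.48, then Prom1 and Thy1 at 2.39 and Hprt at 2.35. Among the adult stem cell markers 6 of 8 passed 1 cycle, against 40.0% of all 55 assays, with a median of 1.60 against 0.59. The reference gene Hprt passed as well. These differences were not taken within the Gapdh sets, and the part of template amount in them was not tested. The comparison was added after seeing the data. The lowest was h2b, with an Ezh2 level of 8.13 ± 2.35 (n = 27) in cells with it and 9.13 ± 2.40 (n = 35) in those without. For Bmi1, 5 of 71 assays (7.04%) passed 1 cycle, led by Igf2r at 1.21 and Nanog at 1.07, and 0 of 10 adult stem cell markers did. Its median difference was 0.46 cycles, within its SD of 1.15.

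Both genes were found with and without Epcam. Ezh2 was detected in 50 of 74 cells with Epcam (67.6%, interval 55.7 to 78.0%) and 12 of 22 without (54.5%, interval 32.2 to 75.6%). Here too the intervals overlap and are no test of a difference. Bmi1 was detected in 72 of 74 and 21 of 22. The Ezh2 level was 8.85 ± 2.46 with Epcam and 8.01 ± 2.16 without, and that of Bmi1 was 11.95 ± 1.09 and 11.70 ± 1.35, both differences being smaller than the SDs.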

How the data were processed

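Single cells were read on a 96 by 96 microfluidic array with the dye EvaGreen, per the labels' protocols. The authors deposited raw Ct values, not normalized, with 40 standing for no value, and a table of fold ratios relative to Gapdh and to cell 1, per the file headers. Recomputing the deposited ratios from the Ct values gave them to within 6.55e-06 on the log2 scale. Primer sequences and the baseline and threshold settings were not given in the sources used, so the specificity of the assays was not checked.

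Assay names were matched to symbols in a RefSeq table (GRCm38.p6), which held 91 of 96. Promoter sequences come from RefSeq, and all 3 genes sought matched. Cells at or below the median Gapdh Ct formed the lower set of 48. Partial rho is computed on ranks. Bmi1, Ezh2 and the gene lists were chosen with earlier results of these data known. The genes named were the references, Epcam, Mki67, the 6 assays most and 3 least like each gene, 2 neighbours on each side in share, the 6 widest and 3 smallest differences by Ezh2, and list members. Others (Il17ra, Anpep, Cd200, h2b, Igf2r) follow from those counts or were chosen after their values were seen. Level by each other assay was added after seeing the data. No cells were removed as doublets.

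Statistics used scipy 1.17.1, pandas 2.3.3 and numpy 2.4.6 under Python 3.11.15 and were tested on simulated data. Alternatives were other Ct limits, subsets of cells, scales of level and measures of correlation.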

Additional observations from a re-analysis of the deposited data

How the results depend on the processing

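Of 132 recomputed values for the main results, 111 stayed close to those reported and 0 reversed. Close meant shares within their interval, rho within 0.1, differences of share within 10 points and counts within 1.5 times. Levels and their differences counted as close within 1 SD over cells, a loose rule. By it the Ezh2 difference by Mki67 stayed close at 0.89 relative to Gapdh, against 2.48. Bmi1 had no Ct past 20.13, so its share, mean level and rho with Gapdh could not move with the Ct limits tried. Ezh2 had none past 25.04, so the same values of Ezh2 could not move with a limit of 26 or any recorded Ct. Cell 67 detected neither gene, so leaving it out could not change a level or rho. Part of the 111 was thus fixed in advance, and the count is no measure of how stable the results are. Reversal was counted only for large enough rho and differences (at least 20 points or 1 cycle). Smaller values did change sign, as the Bmi1 difference by Mki67 from -0.10 to 0.15 in cells with Epcam. Without the low-Gapdh cells, the share with Bmi1 was 100% and 13 assays differed by 20 points or more by Ezh2, in place of 27. In the 63 cells that had all of Gapdh, actin and Hprt, Ezh2 was detected in 76.2%, the same share as both genes together (76.2%), the rho of Bmi1 with Gapdh was 0.20 and that of Bmi1 with Ezh2 was -0.0267. In the 74 cells with Epcam, 16 assays passed by Ezh2. With limits of 10 and 30 points, 60 and 7 passed, and within the Gapdh sets 6 did. The difference in the share of Ezh2 by Mki67, averaged within the Gapdh sets, was 5.07 points, and the cause of these shifts was not tested. The partial rho of Bmi1 with Ezh2 was -0.0225.

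Other scales move the mean level by construction. Relative to Gapdh, Bmi1 was at -2.72 and Ezh2 at -6.69. Relative to Gapdh and actin they were at -2.55 and -6.44, and as the log2 of deposited folds at 16.73 and 12.77. With undetected cells at 0, Ezh2 was at 5.61. The Bmi1 difference by Mki67 was -2.50 relative to Gapdh and -2.05 relative to Gapdh and actin, and that of Ezh2 was 1.08 relative to both. Over the Ct limits tried, the Ezh2 difference ran from 1.76 with any recorded Ct to 3.38 with a limit of 26, at which 13 cells had Mki67, and with undetected cells at 0 it was 4.06. Leaving out cell 67, an alternative chosen after seeing the data, gave 65.3% for Ezh2. Mki67 lies near the limit of detection, which bounds what can be said of cells without it.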
